A study of Mus musculus with 18 samples.

Results

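The spectrins, ankyrins and plakins are large scaffold proteins that tie cell membranes to actin, microtubules and intermediate filaments. They were represented here by 9 genes, Sptan1, Sptbn1, Sptbn4, Ank1, Ank2, Ank3, Macf1, Dst and Plec. These were chosen by symbol from the 3 families, with earlier results of these data known. All 9 were among the 13973 genes of the deposited count table, and all 9 passed the low-count filter. The libraries were made from hippocampal-cortical slices of male C57BL/6N mice aged 28 to 35 days, either wild type (WT) or Fmr1 knockout (KO). Fmr1 encodes FMRP, an RNA-binding protein found on polysomes, and the KO line was backcrossed onto C57BL/6. Treatment lasted 30 min at 30 °C, with DMSO as vehicle or with homoharringtonine (HHT) at 20 µM, a drug that holds ribosomes at start codons while those already downstream run on. Each lysate of 10 slices pooled from 2 to 3 mice gave an input library (cleared lysate), a medium and a heavy polysome library, the fractions being chosen by FMRP immunoblot. Both genotypes had 2 HHT lysates and 1 vehicle lysate, which makes 6 lysates and 18 libraries in 12 groups.

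As background, spectrins form long rods of repeated 3-helix bundles, in which an alpha chain (Sptan1 in the brain) pairs with a beta chain (Sptbn1 along most membranes, Sptbn4 at axon initial segments and nodes of Ranvier). Ankyrins dock ion channels, pumps and adhesion molecules onto the beta chain: Ank3 (ankyrin-G) at the initial segment and nodes, Ank2 (ankyrin-B) along the axon, and Ank1 (ankyrin-R) best known from red blood cells and also present in neurons. Plakins are cross-linkers: Macf1 joins actin to microtubules, Dst (dystonin) links the cytoskeletal filament systems, and Plec (plectin) anchors intermediate filaments. All are translated from long coding sequences, so a ribosome that has started takes longer to leave than on a typical mRNA.

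Because HHT acts at the first codon, the first coding bases of 5 members are shown, 5′ to 3′, with the start codon in capitals. They are from the longest complete coding sequence of each gene in GENCODE M21 (build GRCm38, the assembly of mm10), with the member's name before each.
Sptan1: ATGgatccaagtggggtcaaagtgctggaa
Sptbn1: ATGacgaccacggtagccacagactatgac
Ank3: ATGagtgaagagccaaaggagaagcccgcc
Macf1: ATGtcttcctctgatgaagaaacgctcagt
Dst: ATGatcgccgccgctttcctcgttttgctg
The last coding bases of Sptan1 and Macf1, with the stop codon in capitals, mark the other end of the run that a ribosome has to complete.
Sptan1: gagttcacccgctcactctttgtgaatTGA
Macf1: tcccccaggactccaggtcccaagcgaTAA
In mm10, Sptan1 lies at chr2:29965560-30031451 on the + strand, with 2498 codons between these ends. The gene for Sptbn1 lies at chr11:30099395-30268175 on the − strand, with 2363 codons. Sptbn4 (chr7:27356383-27447686, − strand) has 2561 codons. Among the ankyrins, Ank1 (chr8:22974844-23150497, + strand) has 1907 codons, Ank2 (chr3:126921612-127499350, − strand) has 3926, and Ank3 (chr10:69398773-70027438, + strand) has 1985 in its longest complete form. Longer Ank3 coding sequences are annotated without a complete start or end in GENCODE M21 and are not used here. The plakins are longer: Macf1 (chr4:123349633-123684360, − strand) has 7355 codons, Dst (chr1:33908225-34308661, + strand) has 7717 and Plec (chr15:76170974-76232574, − strand) has 4691. The median over the 13063 genes with a coding length was 480 codons. Each member has several coding transcripts, from 3 for Sptbn1 to 22 for Ank3, and the deposited values do not separate them.

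Libraries held between 6226237 and 13834652 estimated counts, of which the 9 members together took 0.196% to 0.882%. Fmr1 itself was at 13.9 to 32.2 CPM (the count as a share of its library, scaled by the TMM method) in the WT libraries and 4.62 to 8.53 in the KO libraries, with no overlap. Every value is a share of the RNA in its own library. A higher share in a fraction therefore cannot be told apart from a lower share of the other mRNAs there, and fewer cells of a type cannot be told apart from less RNA per cell. HHT replicate 2 libraries of both genotypes differed from the other libraries in the lowest value they listed, 0.772 to 0.904 rescaled TPM against 1.00 to 1.04, so results on HHT are also given for each replicate number where it matters.

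In the input of vehicle slices, the alpha spectrin was the most abundant of the 9 mRNAs per length. On the rescaled TPM scale, which divides by 1 length per gene, the level of Sptan1 was 464 in the WT library and 494 in the KO library. Ank2 followed with 221 and 215, and Sptbn1 with 210 and 218, so that these 2 changed places between the libraries. Sptbn4 was at 107 and 113, Ank3 at 79.5 and 74.4, and Plec at 40.7 and 40.9. Dst was at 24.7 and 24.1, Ank1 at 21.9 and 20.3, and Macf1 at 19.3 and 18.6. With 1 vehicle library per genotype, the only spread available is the gap between these libraries. It left every neighbouring pair in that order separate except Ank2 and Sptbn1. The order also rests on the authors' length per gene. Relative to the median gene, the length implied by the deposited values was 1.921 for Ank2, 1.826 for Sptbn4, 2.737 for Sptan1 and 2.815 for Sptbn1. The transcripts used here have 12413, 8747, 7585 and 8238 bases, respectively. With other lengths the order below Sptan1 need not hold.

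With HHT the share of most of these mRNAs in polysomes was higher, while no change in their share of the input was called. Here a call is an adjusted p (edgeR's quasi-likelihood test, Benjamini-Hochberg over all 13973 genes) under 0.05 in a fit to all 18 libraries, with WT and KO weighted equally. In the heavy polysomes 7 of the 9 members rose, against 27.1% of all genes that rose there. In the medium polysomes 6 of the 9 rose, against 25.4% of all genes. No member fell in either. Of genes with 1000 to under 2000, 2000 to under 4000 and 4000 or more codons, 26.01%, 51.75% and 68.75% rose in heavy. In medium 47.86%, 63.49% and 22.92% of them rose. All 4 HHT libraries were above both vehicle libraries for 7 members in heavy (35.2% of all genes), 6 in medium (33.9%) and 1, Sptbn1, in input (18.4%). In the input no member was called, where 12.2% of all genes rose and 0.215% fell. The median log2 change of the 9 was 1.12 in heavy, 0.91 in medium and 0.02 in input, beside 0.06, 0.03 and −0.00 for all genes. In heavy 3781 of all genes rose and 3451 fell, and with the RLE scaling 3210 rose and 4079 fell, with the median of all genes at −0.06 and 6 members higher.

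**Figure D1:**
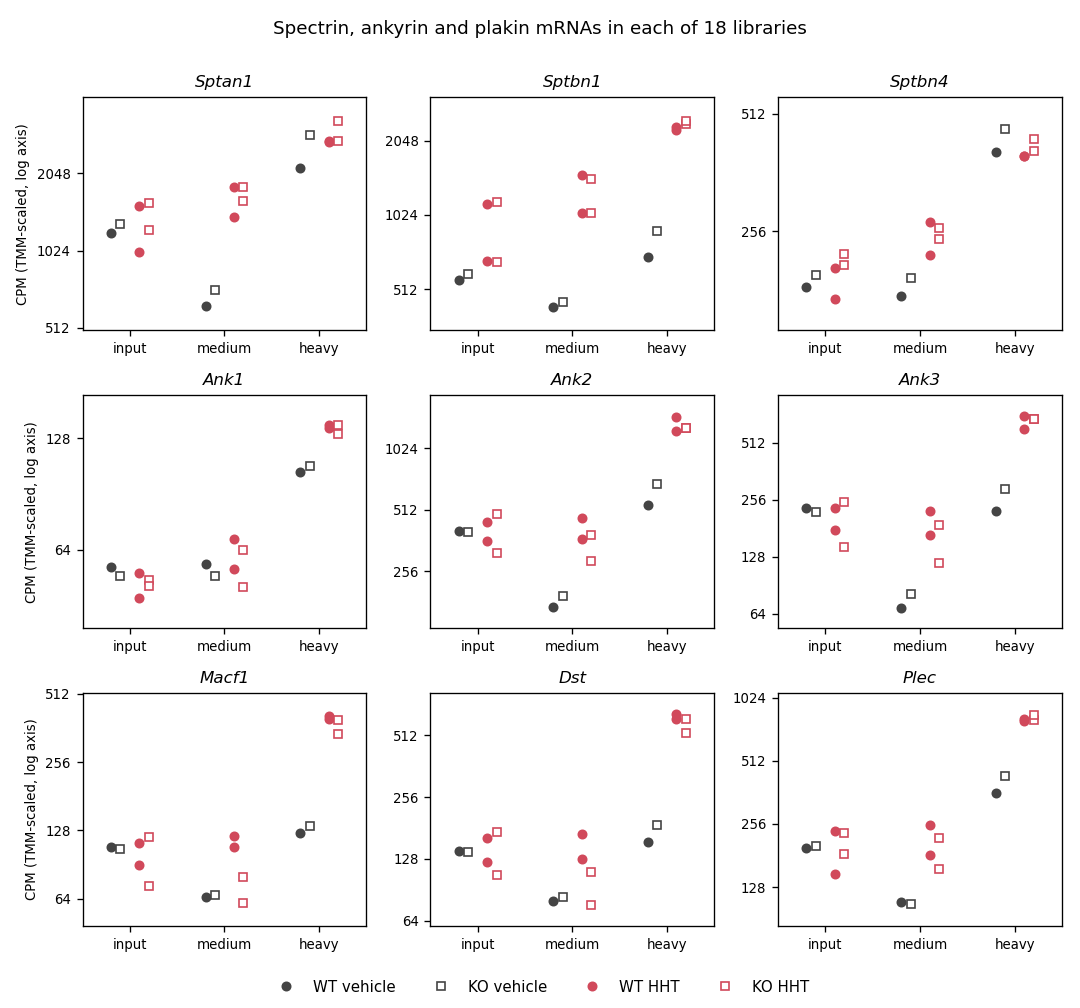
CPM (TMM-scaled, log axis) of each member in each of the 18 libraries, with the fraction on the horizontal axis; grey marks vehicle, red marks HHT, filled circles WT and open squares KO. In the heavy fraction the 4 HHT libraries sit above both vehicle libraries for every member except Sptan1 and Sptbn4, and in the input they do so for Sptbn1 only.

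The 2 spectrin chains that pair with each other, Sptan1 and Sptbn1, parted in the heavy polysomes. For the beta chain Sptbn1, heavy CPM was 689 in the WT and 879.5 in the KO vehicle library, 2321 and 2269 in the WT HHT libraries (replicates 1 and 2) and 2388 and 2465 in the KO HHT libraries. Every HHT library was far above both vehicle libraries, with no overlap and little spread among the 4. The fitted change was 1.60 ± 0.26 (log2, SE), 3.03-fold, with an adjusted p of 0.00016. For the alpha chain Sptan1, heavy CPM was 2139 (WT) and 2897 (KO) with vehicle, 2721 and 2734 in the WT HHT libraries, and 2744 and 3256 in the KO HHT libraries. The KO vehicle library lay among the HHT libraries, and Sptan1 was not called, at 0.20 ± 0.17 (adjusted p 0.356).

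In the medium polysomes both chains rose together. Sptan1 was at 622 (WT) and 721 (KO) CPM with vehicle, at 1806 and 1384 in the WT HHT libraries and at 1803 and 1604 in the KO HHT libraries. Sptbn1 was at 434 and 456 with vehicle, at 1493 and 1044 in WT with HHT and at 1438 and 1044 in KO with HHT. All HHT libraries were above all vehicle libraries for both chains, and in both genotypes HHT replicate 1 was the higher. The changes were 1.30 ± 0.18 for Sptan1 (adjusted p 0.000159) and 1.50 ± 0.26 for Sptbn1 (adjusted p 0.000491). Sptbn4, the beta chain of initial segments and nodes, rose by 0.44 ± 0.12 (adjusted p 0.00922). Its medium CPM ran from 175 to 195 with vehicle and from 222 to 271 with HHT. In heavy it had no call, at −0.09 ± 0.12, with vehicle at 409 and 469.6 CPM and overlapping HHT libraries at 398 to 441.

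The ratio of beta to alpha mRNA within a library needs no scaling between libraries. It was looked at after the values above had been seen. On rescaled TPM, Sptbn1 over Sptan1 in heavy polysomes was 0.313 (WT) and 0.295 (KO) with vehicle. With HHT it was 0.830 and 0.807 in the WT libraries and 0.846 and 0.736 in the KO libraries. All 4 HHT libraries were above both vehicle libraries, a 2.64-fold difference of means on the log scale. A two-sided exact permutation test of 4 against 2 libraries gave p = 0.133, the smallest that this design allows. In the input the ratio was 0.452 and 0.441 with vehicle and 0.522 to 0.723 with HHT, again without overlap (exact permutation p = 0.133). In medium the groups overlapped, 0.679 and 0.614 with vehicle against 0.633 to 0.804 with HHT (exact permutation p = 0.267).

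**Figure D2:**
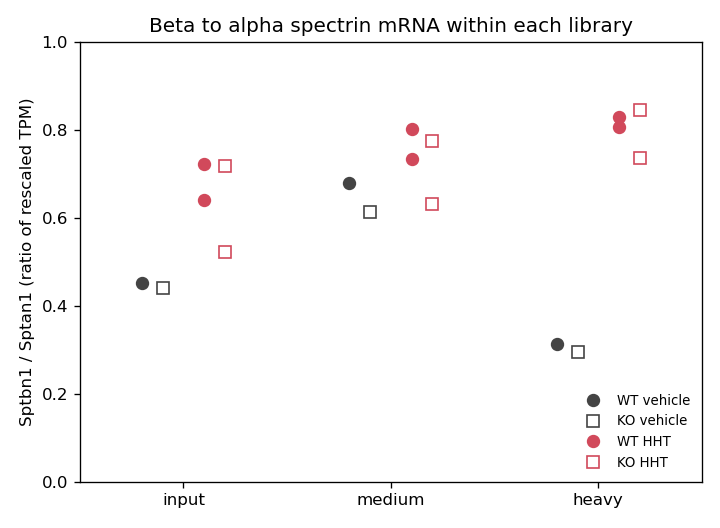
Ratio of Sptbn1 to Sptan1 (rescaled TPM) in each library by fraction; grey marks vehicle, red HHT, filled circles WT and open squares KO. In heavy polysomes the 2 vehicle libraries are at 0.295 and 0.313 and the 4 HHT libraries between 0.736 and 0.846, while in medium the groups overlap.

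The input of Sptbn1 also moved, and it did so with the replicate number. Sptbn1 was at 557 (WT) and 589 (KO) CPM in vehicle input, at 1137 and 1156 in the HHT replicate 1 inputs, and at 665 and 661 in the HHT replicate 2 inputs. Both genotypes gave the same pair of levels, with replicate 1 well above vehicle and replicate 2 close to it. Over all libraries the change was 0.66 ± 0.25 (adjusted p 0.114). Without the WT or the KO HHT replicate 2 lysate it was called, at 0.83 in both cases (adjusted p 0.0359 and 0.0387). With HHT replicate 1 alone it was 1.00 ± 0.10 (adjusted p 4.68e-07), and with HHT replicate 2 alone 0.18 ± 0.12 (adjusted p 0.385). The fits of one number alone took the WT and KO libraries as replicates of a treatment and fraction. Their standard errors leave out the spread between replicate numbers and are not comparable with the 0.25 above. The other 8 members changed in the input by −0.18 (Ank3) to 0.09 (Sptan1), with no call.

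Among the ankyrins, Ank2 and Ank3 rose in both polysome fractions and Ank1 was called in heavy, with a smaller change. Heavy CPM of Ank3 was 223 (WT) and 291 (KO) with vehicle, 604 and 712 in the WT HHT libraries and 683 and 685 in the KO HHT libraries. Its medium CPM was 68.9 and 81.3 with vehicle, 223 and 167 in WT with HHT, and 187 and 119 in KO with HHT. Neither fraction had any overlap between the treatments. Ank3 rose by 1.40 ± 0.24 in heavy (2.63-fold, adjusted p 0.000235) and by 1.21 ± 0.24 in medium (2.31-fold, adjusted p 0.00121). Ank2 rose by 1.12 ± 0.19 in heavy, from 537 and 681 CPM with vehicle to between 1241 and 1463 with HHT (adjusted p 0.000242). In medium it rose by 1.04 ± 0.19, from 171 and 194 CPM to between 286 and 467 (adjusted p 0.00078). Ank1 rose in heavy, by 0.36 ± 0.13 (1.29-fold, adjusted p 0.0305), where vehicle was at 104 and 108 CPM and HHT at 132 to 139. That call was lost without the WT or the KO HHT replicate 1 lysate (adjusted p 0.0556 and 0.0785), with RLE scaling (0.13) and with DESeq2 (0.189). In medium it was at 58.3 and 54.4 CPM with vehicle and 50.6 to 68.3 with HHT, and its change of 0.08 ± 0.13 was not called. The difference between its heavy and medium changes, 0.28 ± 0.18, was not called either (adjusted p 0.255).

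The 2 longest plakins changed mainly in the heavy polysomes. Dst, the longest coding sequence of the set, had heavy CPM of 155 (WT) and 188 (KO) with vehicle, 613 and 648 in the WT HHT libraries and 615 and 526 in the KO HHT libraries. Macf1 had heavy CPM of 124 and 135 with vehicle, 395 and 409.5 in WT with HHT and 390.2 and 341 in KO with HHT. For both genes each HHT library held more than 2 times the CPM of either vehicle library. Dst rose by 1.81 ± 0.22 (3.51-fold, adjusted p 2.12e-05) and Macf1 by 1.57 ± 0.19 (2.97-fold, adjusted p 2.42e-05).

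In the medium polysomes the same 2 mRNAs overlapped between treatments. Macf1 medium CPM was 65.2 (WT) and 66.8 (KO) with vehicle, 120.5 and 109 in WT with HHT, and 80.2 and 61.1 in KO with HHT. Dst was at 79.9 and 83.7 with vehicle, at 169.5 and 128 in WT with HHT, and at 110.0 and 76.6 in KO with HHT. The KO HHT replicate 2 library was the one below vehicle in each case. Neither was called, with Macf1 at 0.45 ± 0.19 (adjusted p 0.0662) and Dst at 0.52 ± 0.21 (adjusted p 0.054). Without the KO HHT replicate 2 lysate both were called, at 0.54 and 0.64 (adjusted p 0.0129 and 0.0119), and without the WT HHT replicate 2 lysate Dst was (0.62, adjusted p 0.0438). In the WT contrast of the fit to all 18 libraries (2 HHT libraries against 1 vehicle library) both were called, at 0.81 and 0.89. The matching KO contrast called neither. Both were also called with the 6 medium libraries alone (0.43 and 0.50, adjusted p 0.047 and 0.0448), and Dst with DESeq2 (0.49, adjusted p 0.0445). Plec, the intermediate filament linker, rose in both fractions. It went from 360.3 and 434 CPM to between 789 and 849 in heavy (1.04 ± 0.20, adjusted p 0.000714), and from 109 and 106 CPM to between 157 and 252 in medium (0.91 ± 0.20, adjusted p 0.00264).

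**Figure D3:**
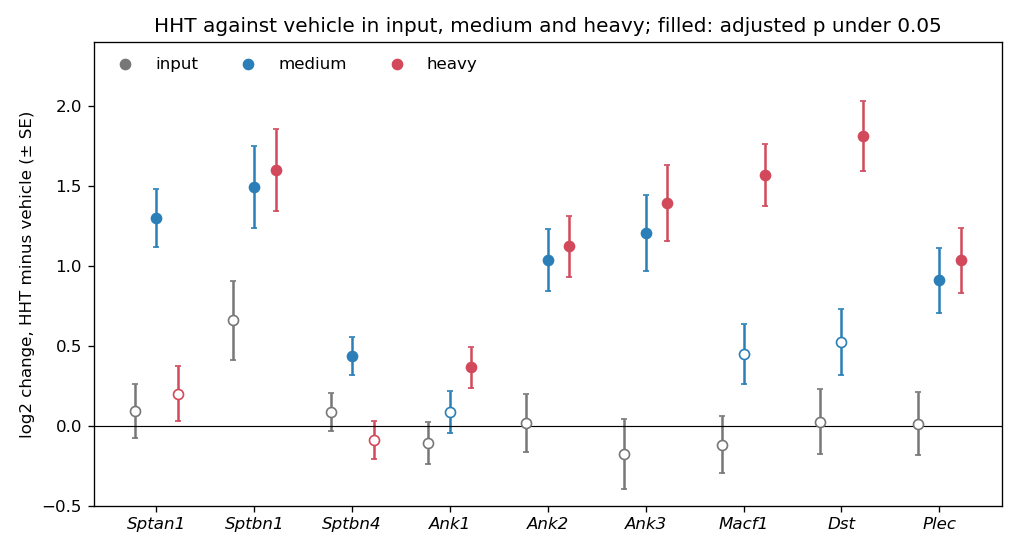
Log2 change of each member between HHT and vehicle (points) with its standard error (bars) in input, medium and heavy, from the fit to all 18 libraries; filled points have an adjusted p under 0.05. Sptan1 and Sptbn4 had their call in medium, Ank1, Macf1 and Dst in heavy, and Sptbn1, Ank2, Ank3 and Plec in both; a call in one fraction is not a test of the difference between fractions.

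A test of the difference between fractions was made on the change itself, as the shift by HHT of one fraction relative to another. The heavy to medium shift was upward for Dst (1.29 ± 0.29, adjusted p 0.00406) and Macf1 (1.12 ± 0.26, adjusted p 0.0049), where 18.1% of all genes shifted up. It was downward for Sptan1 (−1.10 ± 0.24, adjusted p 0.00355) and Sptbn4 (−0.52 ± 0.17, adjusted p 0.0257), where 18.4% of all genes shifted down. The call of Sptbn4 was lost without the WT HHT replicate 1 lysate or either KO HHT lysate (adjusted p 0.0536 to 0.0885). For the other 5 members the shift lay between 0.09 and 0.28 with no call. With 2 of 9 called up and 2 of 9 called down, the members were near the shares of all genes in both directions. The median over all genes was 0.12.

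Replicate number moved with the size of the change in input and medium. In both genotypes every one of the 9 members was higher in HHT replicate 1 than in HHT replicate 2, in the input (by 0.06 to 0.81 on the log2 scale) and in medium (by 0.09 to 0.66). How many of all genes were higher in replicate 1 was not counted, so this cannot be called a trait of the members. In heavy the median gap between the numbers was −0.00 in KO and −0.01 in WT. With HHT replicate 1 alone 9 members were called in medium and 7 in heavy, and with HHT replicate 2 alone 5 and 7. These fits took WT and KO libraries as replicates, unlike the main fit, so their counts are not comparable with its counts. The share of all genes that rose moved too, from 29.8% with replicate 1 alone to 21.7% with replicate 2 alone in medium and from 30.3% to 24.3% in heavy. What separates the replicate numbers was not tested.

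The fractions of a lysate can be compared directly, since they come from the same slices. After HHT, all 9 members were enriched in heavy polysomes over the input of their own lysate, where 27.6% of all genes were. All 9 were also enriched over medium, where 19% of all genes were. Long mRNAs had these calls more often. Heavy over input was called for 69.14% of genes with 1000 to under 2000 codons. It was called for 86.35% with 2000 to under 4000 and 85.42% with 4000 and over. Heavy over medium was called for 62.04%, 84.13% and 85.42% of these classes. The order of the heavy to input enrichment put the plakins at the top. It was 2.09 ± 0.17 for Dst, 2.02 ± 0.16 for Plec, 1.95 ± 0.15 for Macf1, 1.75 ± 0.19 for Ank3 and 1.71 ± 0.15 for Ank2. It was 1.40 ± 0.11 for Ank1, 1.38 ± 0.20 for Sptbn1, 1.10 ± 0.14 for Sptan1 and 1.02 ± 0.10 for Sptbn4. Adjusted p-values ran up to 6.85e-05, the largest being that of Sptbn1. Neighbours in this order were less than the larger of their standard errors apart, except Macf1 and Ank3, Ank2 and Ank1, and Sptbn1 and Sptan1, and these differences were not tested.

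With vehicle the same lysate comparison looked different. Medium held less than input for 6 members, where 9.5% of all genes were lower. These were Ank3 (−1.59 ± 0.27), Ank2 (−1.13 ± 0.21), Sptan1 (−0.90 ± 0.20), Plec (−0.88 ± 0.23), Dst (−0.76 ± 0.24) and Macf1 (−0.71 ± 0.21). Among genes with 1000 to under 2000, 2000 to under 4000 and 4000 or more codons, 26.2%, 47.62% and 43.75% were lower. The calls of Dst and Macf1 were lost without the WT HHT replicate 1 or 2 lysate, which only supply the spread here (adjusted p 0.0502 to 0.0568). In the other 3 the difference lay between −0.37 (Sptbn1) and 0.01 (Ank1). Heavy held more than input for 5 members, where 24.8% of all genes were higher. These were Sptbn4 (1.20 ± 0.14), Plec (1.00 ± 0.23), Sptan1 (1.00 ± 0.20), Ank1 (0.93 ± 0.15) and Ank2 (0.60 ± 0.21). In the same length classes 47.03%, 38.41% and 14.58% of genes were higher. Sptbn1 (0.44 ± 0.28), Dst (0.30 ± 0.23), Macf1 (0.26 ± 0.21) and Ank3 (0.17 ± 0.26) were not called, and the last 3 were below 0 when libraries were scaled by total counts. That scaling moved the median of all genes in this comparison from −0.02 to −0.41 and took the call of Ank2 (0.22 ± 0.20). Heavy against medium was higher for all 9, by 0.81 (Sptbn1) to 1.89 (Sptan1), where 25.9% of all genes were higher. The shares in those length classes were 58.47%, 68.57% and 52.08%. The call of Sptbn1 was lost with total counts (0.47, adjusted p 0.142), with limma on rescaled TPM (0.69 and 0.70 for the pseudocounts 1 and 0.1, adjusted p 0.0822 and 0.0799) and with WT (0.67, adjusted p 0.198) or KO libraries only (0.95, adjusted p 0.0762).

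The 2 treatments share no lysate, and the shift between them was tested in the same fit. The heavy to input ratio shifted up with HHT for 5 members, where 12.6% of all genes did. So did 11.82%, 38.73% and 60.42% of genes with 1000 to under 2000, 2000 to under 4000 and 4000 or more codons. Dst shifted by 1.79 ± 0.29 (3.45-fold, adjusted p 0.000739), Macf1 by 1.69 ± 0.26 (adjusted p 0.000558), Ank3 by 1.57 ± 0.32 (adjusted p 0.00273), Ank2 by 1.11 ± 0.26 (adjusted p 0.00634) and Plec by 1.02 ± 0.28 (adjusted p 0.0139). Per lysate, Dst in heavy was 1.11 (WT) and 1.36 (KO) times its input CPM with vehicle, 3.81 and 5.22 times in the WT HHT lysates, and 3.56 and 4.94 times in the KO HHT lysates. Ank3 went from 0.963 and 1.32 times to between 2.62 and 4.77 times.

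Sptbn1 (0.94 ± 0.34, adjusted p 0.0521) and Ank1 (0.47 ± 0.18, adjusted p 0.0693) missed the threshold in that fit. Without the WT or the KO HHT replicate 1 lysate Sptbn1 was called, at 1.15 and 1.20 (adjusted p 0.0224 and 0.0179). With 1 term per lysate, which pairs the fractions, they passed it (adjusted p 0.00395 and 0.0286). Sptan1 (0.11 ± 0.24) and Sptbn4 (−0.18 ± 0.17) did not pass either way. The heavy to input ratios of all 4 HHT lysates were above both vehicle lysates for 7 members, all except those 2, where the same held for 25.9% of all genes.

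The medium to input ratio shifted up for 4 members, where 7.09% of all genes did: Ank3 by 1.38 ± 0.32 (adjusted p 0.0115), Sptan1 by 1.21 ± 0.24 (adjusted p 0.00652), Ank2 by 1.02 ± 0.26 (adjusted p 0.0171) and Plec by 0.90 ± 0.28 (adjusted p 0.0408). It also shifted up for 24.28%, 39.68% and 8.333% of genes with 1000 to under 2000, 2000 to under 4000 and 4000 or more codons. The call of Plec was lost without any one of WT HHT replicate 2, KO HHT replicate 1 and KO HHT replicate 2 (adjusted p 0.05003 to 0.0827), and Macf1 gained one without KO HHT replicate 1 (0.68, adjusted p 0.0392). Sptbn1 (0.84 ± 0.34, adjusted p 0.111) and Macf1 (0.56 ± 0.26, adjusted p 0.159) passed with 1 term per lysate (adjusted p 0.0149 and 0.0278). After HHT itself, medium differed from input by −0.26 (Dst) to 0.47 (Sptbn1). One of the 9, Sptbn4 (0.30 ± 0.10, adjusted p 0.0322), was called higher there, beside 13.4% of all genes, and that call was lost without any one of the 4 HHT lysates (adjusted p 0.0737 to 0.173). With 1 term per lysate Sptan1 (adjusted p 0.0341) and Sptbn1 (adjusted p 0.00958) joined it.

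**Figure D4:**
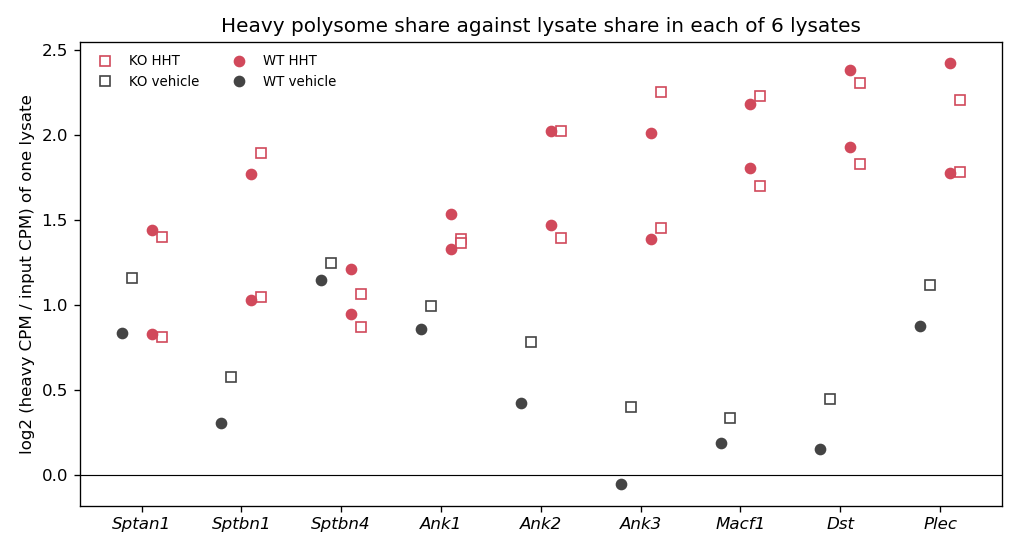
Log2 ratio of heavy to input CPM in each of the 6 lysates, by member; grey marks vehicle, red HHT, filled circles WT and open squares KO. The ratios of Ank3, Macf1 and Dst go from under 0.5 with vehicle to above 1.3 with HHT, while those of Sptan1 and Sptbn4 overlap between treatments.

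Coding length ordered some of these values and not others. Among the 13063 genes with a coding length, the median change with HHT in heavy polysomes was 0.10 below 500 codons (6851 genes), −0.18 from 500 to under 1000 (4284 genes), −0.00 from 1000 to under 2000 (1565 genes), 0.49 from 2000 to under 4000 (315 genes) and 1.03 at 4000 and over (48 genes). Macf1 and Dst were above the upper quartile of that last class (1.54), and Plec (1.04) was at its median. Sptbn1 (1.60) and Ank2 (1.12) were above the upper quartile of genes with 2000 to under 4000 codons (0.86). Sptan1 (0.20) lay just above the lower quartile of that class (0.17) and Sptbn4 (−0.09) below it. Ank3 (1.40), with 1985 codons in its longest complete form, was above the upper quartile (0.48) of the class from 1000 to under 2000. Ank1 (0.36) was within the quartiles of that class. The longer Ank3 coding sequences that were not used could place Ank3 in a longer class. Its 1.40 was within the quartiles of genes with 4000 codons and over (0.23 to 1.54).

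In medium polysomes the class medians were −0.23, 0.17, 0.42, 0.62 and 0.35 from the shortest to the longest, and Macf1 (0.45) and Dst (0.52) lay within the quartiles of the longest class (0.08 to 0.56). Plec (0.91) was above them. As a description over the 9 members, the Pearson r between log2 codons and the HHT change was 0.55 in heavy and −0.26 in medium. Over the 13063 genes it was 0.04 and 0.44. For heavy against input after HHT, r with log2 codons was 0.74 over the members and 0.67 over the 13063 genes. The values over the members take Ank3 at 1985 codons. Sptan1 and Sptbn1, of 2498 and 2363 codons, differ by little in length and by 1.40 in their heavy change.

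**Figure D5:**
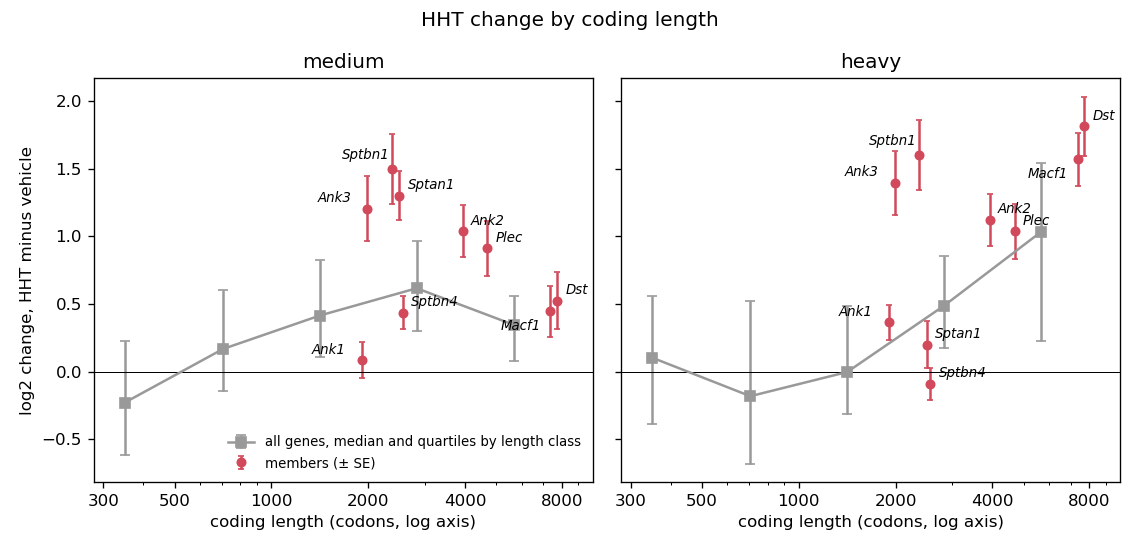
Log2 change with HHT against coding length (codons, log axis) in medium (left) and heavy (right); grey squares are the medians of all genes in 5 length classes with their quartiles as bars, and red points are the 9 members with standard errors. In heavy, Macf1 and Dst lie above the longest class's median of 1.03, and Sptan1 and Sptbn4 lie below the 0.49 of their class.

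Loss of Fmr1 gave no call for any member. Between KO and WT slices under HHT, 0 of 9 members and 0% of all genes passed edgeR's test in each fraction. Fmr1 itself, whose CPM did not overlap between the genotypes, was not called either. The test with 2 libraries per genotype therefore cannot show that a member was unchanged. Without adjustment, 2 members had a p under 0.05 in medium and none in input or heavy, against 387, 679 and 412 genes of all. DESeq2 called 0 of 9 members, and 4, 2 and 1 of all genes in input, medium and heavy. The count of 2 in medium became 4 when KO HHT replicate 1 was left out, 1 when either WT HHT replicate 1 or KO HHT replicate 2 was, and 5 with the replicate block for equal numbers. The 2 members were Macf1 and Dst. Macf1 in medium differed by −0.70 ± 0.21 (KO minus WT, p 0.00553, adjusted p 0.999) and Dst by −0.67 ± 0.23 (p 0.013, adjusted p 0.999). Both KO libraries were below both WT libraries for these 2 of the 9 members in medium, which is near the 18.2% of all genes. Such separation was not particular to them. In heavy both KO libraries were above both WT libraries for Sptan1, Sptbn1 and Sptbn4 and below for Macf1, and in the input above for Sptbn4. The shares of all genes for these are not given here. In the input the 9 differences ran from −0.08 to 0.20, and in heavy from −0.14 to 0.14.

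The difference between genotypes in the HHT change itself was also tested, with 0 of 9 members and 0% of all genes called in any fraction by edgeR or DESeq2. No member had an unadjusted p under 0.05, beside 214, 187 and 104 of all genes in input, medium and heavy. In medium the 9 estimates ran from −0.74 (Dst, ± 0.41) to −0.03, with a median of −0.17 beside −0.02 for all genes. Macf1 was at −0.73 ± 0.37 (adjusted p 0.999). In heavy they ran from −0.42 to −0.08, with a median of −0.27 beside −0.03 for all genes. All 9 estimates were below 0 in both fractions, as was the median over all genes, and the share of all genes below 0 was not counted. The 9 estimates share the single vehicle library of each genotype. In medium the members' median moved with the lysate left out. When replicate 1 was dropped from the WT HHT pair, the members' median was 0.03, and when replicate 2 was dropped it was −0.38. For the KO HHT pair the medians were −0.43 (replicate 1 dropped) and −0.08 (replicate 2 dropped). In heavy the median stayed between −0.30 and −0.24. Without KO HHT replicate 1, 4 members had an unadjusted p under 0.05 in medium, and with the replicate block for equal numbers 4 did in medium and 2 in heavy, again with no member called.

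Across the 18 libraries, the most alike pairs of profiles were within families, but not every member was closest to one of its own. As a description over libraries that share 6 lysates, Pearson's r of log2 CPM was 0.997 for Macf1 and Dst and 0.990 for Ank2 and Ank3, but 0.833 for Sptan1 and Sptbn1. The lowest r among the 9 was between Sptbn1 and Sptbn4 (0.698). Sptan1 (0.919) and Ank1 (0.938) were closest to Plec among the members, Sptbn1 (0.850) and Plec (0.983) to Ank2, and Sptbn4 to Ank1 (0.931). Among the genes outside the set with a mean of at least 5 CPM, the closest profile to Ank3 was that of Fryl (r 0.995), then Vps13b (0.992) and Chd6 (0.990). The closest to Ank2 outside the set were Fry, Vps13b and Fryl (0.9885 to 0.989). Prkdc, a DNA repair kinase, was the closest of them to both Macf1 (0.983) and Dst (0.987), followed by Ahnak and Cpeb4 for Macf1 and by Dync2h1 and Kmt2a for Dst. Sptbn1 was most like Slc4a8, a bicarbonate transporter, Atp2b2, a plasma membrane calcium pump, and Celsr2, an adhesion receptor (0.988 to 0.989). Sptan1 was most like Mcm3ap, Gtf3c1 and Tro (0.988 to 0.992), Sptbn4 like Znf512b (0.990) and Zc3h4 (0.985), Ank1 like Arhgef11, Speg and Sipa1l1 (0.984 to 0.988), and Plec like Dock9, Unc79 and Wdfy3 (0.988 to 0.992).

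The genes listed as partners of these scaffolds did not share one response. Whether each of them binds its scaffold directly was not tested. The lists, like the members, were chosen with earlier results of these data known. Of 17 genes listed as initial segment and node partners of ankyrin, 16 were measured. Among these, 15 rose with HHT in heavy, 14 in medium and 11 in input, where 27.1%, 25.4% and 12.2% of all genes rose. Their median heavy change was 1.93, beside 0.06 for all genes. Examples in heavy are the sodium channel Scn8a (2.85 ± 0.33) and the sodium channel subunit Scn2b (1.26 ± 0.15). The adhesion molecules L1cam (2.50 ± 0.46) and Cntn1 (1.26 ± 0.24) had risen in the input already, where neither ankyrin was called. Trim46, a microtubule organiser of the initial segment, was the 1 of the list that fell in heavy (−0.66 ± 0.10).

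The genes listed as membrane skeleton partners of spectrin moved mostly down in heavy. Of 10 measured out of 14 listed, 7 fell and 1 rose there, where 24.7% of all genes fell and 27.1% rose, with a median of −0.85 beside 0.06 for all genes. The adducin Add3 fell in heavy (−1.11 ± 0.11) and rose in medium (0.92 ± 0.12). The scaffold Mpp1 (−1.63 ± 0.15) and the actin cappers Tmod1 (−1.23 ± 0.16) and Tmod3 (−1.07 ± 0.15) fell in heavy. Among 18 of 18 measured actin, microtubule and intermediate filament partners of plakins, 12 fell and 1 rose in heavy, with a median of −0.53, against the same shares and median of all genes. Actb (−1.76 ± 0.14), the intermediate filament genes Vim (−1.83 ± 0.14) and Nefl (−1.44 ± 0.12), and Actg1 (−1.24 ± 0.12) fell, in the fraction where Plec, Macf1 and Dst rose.

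Relatives with spectrin repeats had calls in heavy near the shares of all genes. Of 11 measured out of 13 listed genes with spectrin repeats (other spectrins, alpha-actinins, dystrophins and nesprins), 3 rose and 2 fell in heavy, where 27.1% of all genes rose and 24.7% fell, and 5 rose in medium, where 25.4% did. Their median heavy change was 0.03, beside 0.06 for all genes. The beta spectrin Sptb (0.47 ± 0.13) rose in heavy and was not called in medium. The alpha-actinin Actn1 rose in medium (0.88 ± 0.13) and fell in heavy (−0.63 ± 0.12), and Actn4 did likewise (0.40 ± 0.11 and −0.33 ± 0.11). Of 4 other plakins 3 were measured. Dsp (desmoplakin) rose in medium (1.07 ± 0.24), where 25.4% of all genes rose, and Evpl (envoplakin) fell in heavy (−0.36 ± 0.14), where 24.7% fell.

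Cell type markers also differed between treatments. Summed CPM of 8 neuron markers in the input ran from 10435 to 11027 with vehicle and from 11031 to 12439 with HHT, and in heavy from 15286 to 15625 and from 12346 to 13563. The 8 astrocyte markers in the input ran from 1643 to 1891 with vehicle and from 2283 to 2775 with HHT, the 8 microglia markers from 82.3 to 118 and from 177 to 215, the 8 vessel markers from 27.7 to 30.2 and from 49.9 to 59.5, the 8 oligodendrocyte markers from 3256 to 3481 and from 3809 to 4436, and the 6 choroid plexus markers from 97.6 to 149.6 and from 192 to 309. In medium the neuron markers ran from 9631 to 10465 with vehicle and from 13168 to 13644 with HHT, and the astrocyte markers from 1333 to 1724 and from 3001 to 3418. The microglia markers there ran from 73.0 to 76.6 and from 94.1 to 127, the vessel markers from 28.9 to 31.0 and from 39.1 to 50.7, the oligodendrocyte markers from 3339 to 3373 and from 3567 to 4361, and the choroid plexus markers from 91.1 to 103 and from 141 to 184. In heavy the astrocyte markers ran from 2530 to 2598 with vehicle and from 2650 to 3732 with HHT, the oligodendrocyte markers from 3302 to 3361 and from 3626 to 4098, and the choroid plexus markers from 63.3 to 68.1 and from 77.7 to 129. The microglia markers (76.5 to 79.7 and 58.9 to 87.0) and the vessel markers (28.1 to 32.7 and 27.8 to 42.5) overlapped between treatments in heavy. Astrocyte, oligodendrocyte and choroid plexus markers were thus higher with HHT in every fraction, and neuron markers were higher in input and medium and lower in heavy. Of 5 blood markers 2 were measured, at 0.749 to 27.8 CPM over the 18 libraries. Their part in the results above was not tested.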

How the data were processed

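Per the labels' protocols, total RNA (200 ng a library) was made into stranded libraries, and fractions of one replicate number within a genotype and treatment share a lysate. Per the submitters' processing notes, the build was mm10 and the tools included RSEM 1.2.11, Bowtie2 2.1.0, Trimmomatic 0.32 and DESeq2 1.16.1, with no roles stated. The deposited count table holds the authors' estimated counts (0 of 251514 values whole within 1e-06). The other deposited table holds a score that the authors call TPM, of which 10 columns sum to more than TPM can, so it is called rescaled TPM. Each count is the rescaled TPM times 1 factor per gene and 1 per library. No source used here tells whether the authors adjusted batches, which would understate the spread.

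After rounding, edgeR 4.0.16 (R 4.3.3) fitted the counts (quasi-likelihood test, TMM, 12 group means, 6 residual degrees of freedom, 2-sided), adjusted over all genes within each of 18 comparisons. Vehicle groups hold 1 library each and are assumed to vary like the HHT groups. Log2 CPM used a prior count of 2. Deviations of fractions of the same lysates correlated at 0.349 (WT) and 0.211 (KO) for input and medium and at 0.0142 to 0.0654 otherwise. The block per lysate rests on the protocol, and its values are given where a call changed. Alternatives were DESeq2 1.42.0, limma 3.58.1 on log2(rescaled TPM + 1) or + 0.1, other scalings and filters, blocks, and fewer libraries. Fits of a single HHT replicate number against vehicle left out genotype and took WT and KO libraries as replicates.

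Members and gene lists were chosen with earlier results of these data known. Named genes are all 9 members, up to 4 of each list by smallest adjusted p in a comparison discussed, with further ones named after their values were seen, and the 3 genes most like each member. A protein table was not used here, so lengths are coding lengths in GENCODE M21 (93.49% of genes matched). Some genes that this rule would name are not reported here.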

Additional observations from a re-analysis of the deposited data

How the results depend on the processing

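Of 1364 values of single members under 18 other settings, 1236 kept their direction and their side of the threshold, 68 were no longer past it, 36 passed it newly and 24 turned direction. The 24 belong to values that were not called. Of the 1236, 92 come from the setting with no filter, which could not differ because the filter had removed no gene. Of 252 counts of called members, 233 stayed within 1.5 times the reported count.

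Among counts, HHT against vehicle in input had 1 member without WT or KO HHT replicate 2 and with HHT replicate 1 alone (0 to 1 over the lysates left out). Medium against input after HHT had 0 with total counts, 0 without any one HHT lysate (range 0 to 0), 0 with WT or KO libraries only, and 3 with the replicate block of 1 term per lysate. With WT libraries only, the counts were 2 for medium against input with vehicle, 3 for heavy against input with vehicle, 2 for the medium to input shift and 0 for the heavy to medium shift. With KO libraries only, they were 2 for HHT in medium, 0 for medium against input with vehicle, 0 for the medium to input shift and 2 for the heavy to input shift. The settings with WT or KO libraries only are contrasts within the fit to all 18 libraries, so the spread comes from both genotypes. Single genotypes have fewer libraries in each contrast. The cause of the other moves was not tested.

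The values that turned direction were small. Ank3 in input was 0.0867 with HHT replicate 1 alone. Ank1 in medium was −0.0266 with total counts, −0.0185 to 0.163 with 1 HHT lysate left out and −0.0816 with HHT replicate 2 alone. Sptbn4 in heavy was 0.14 and 0.15 with limma on rescaled TPM (pseudocount 1 and 0.1). Dst in medium against input after HHT was 0.0555 with WT libraries only. For heavy against input with vehicle, total counts gave −0.213 for Ank3, −0.0872 for Dst and −0.122 for Macf1, limma with pseudocounts 1 and 0.1 gave −0.0925 and −0.0938 for Ank3 and −0.00283 and −0.00303 for Macf1, and WT libraries only gave −0.0539 for Ank3. The heavy to input shift of Sptan1 was −0.0386 to 0.278 with 1 HHT lysate left out (below 0 without either HHT replicate 2), −0.19 with HHT replicate 1 alone and −0.0559 with KO libraries only, and that of Sptbn4 was 0.17 with limma under either pseudocount. The heavy to medium shift of Sptbn1 was −0.0132 to 0.243 with 1 HHT lysate left out (below 0 without either HHT replicate 2) and −0.13 with HHT replicate 1 alone. The cause was not tested.

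Total counts moved the median of all genes by over 0.1, for instance from −0.00 to −0.11 for HHT in input (1386 genes higher and 230 lower against 1702 and 30), from 0.03 to −0.08 in medium (2987 and 3728 against 3551 and 3011), from −0.04 to −0.28 for heavy against input after HHT (2382 and 6090 against 3860 and 4250) and from −0.08 to −0.42 for heavy against medium with vehicle (2617 and 5712 against 3616 and 3925). With limma on log2(rescaled TPM + 1), HHT in heavy had 5528 genes higher and 2450 lower, and the heavy to input shift 3996 and 1298 against 1762 and 2279. The labels do not say whether equal replicate numbers in WT and KO mark a shared preparation, and they were not paired. Deviations of same-numbered WT and KO libraries correlated at 0.323 in input, 0.165 in medium and 0.00332 in heavy. With the replicate block for those numbers, KO against WT and genotype by treatment still had 0 called members, and Macf1 and Dst in medium were at −0.71 and −0.68 (adjusted p 0.102 each). Estimated counts of 6226237 or more per library were not limiting for the members, and the 6 residual degrees of freedom and single vehicle libraries limit the precision.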

Other observations

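The vehicle slices had 1 library of each genotype, so they were compared by value only. In vehicle heavy polysomes all 9 members were higher in the KO than in the WT library, by 0.05 to 0.44 on the log2 scale with a median of 0.28. Over all 13973 genes the median difference was 0.03, and 55.3% of genes were higher in KO. Sptan1 was at 2897 CPM in KO and 2139 in WT there, and Ank3 at 291 and 223. In vehicle medium 7 of the 9 were higher in KO (median 0.07), beside 51% of all genes (median 0.01). In vehicle input 4 of the 9 were (median −0.01), beside 53% of all genes (median 0.01). With a single library on each side, a difference between these libraries cannot be told apart from one between genotypes. The estimates of genotype by treatment use the same libraries.

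For Sptbn4 the direction of the HHT change in heavy polysomes differed with the scaling of the libraries. It was −0.09 ± 0.12 on TMM-scaled counts, where the median of all genes was 0.06, and 0.14 on log2(rescaled TPM + 1), where that median was 0.24. Neither value was past the threshold.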
